A study of Mus musculus with 5 samples.

Results

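Mast cells are granulated immune cells of mucosa and connective tissue, and the 10 genes described here are those by which they are usually recognised: the chymase genes Mcpt1, Mcpt2, Mcpt4 and Cma1, the tryptase genes Tpsb2 and Tpsab1, the carboxypeptidase gene Cpa3, the IgE receptor chains Fcer1a and Ms4a2, and Hdc, which encodes the histamine-forming enzyme histidine decarboxylase. They were taken as a list of names, and every probe paired with them was read. Of the 10 genes, 9 had a probe and 8 could be tested, among 32917 tested features of which 17942 had a gene symbol. RNA of whole colon from wild-type mice of the strain labelled C57BL/B6 was hybridised to 5 single-colour arrays. Of these arrays, 2 held mice labelled Control, and 3 held mice given NT-3N, an agonist of the receptor for the cytokine IL-11, into a vein 3 hr before the colon was removed. The Control mice were untreated animals as far as the sources say. Because no vehicle injection is described for them, the injection and the agonist cannot be told apart. The comparison asks which colon transcripts respond to IL-11 receptor signalling. Each array held 1 mouse by the labels, which give neither age nor sex.

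Mast cells of the gut fall into a mucosal kind, known for the chymases encoded by Mcpt1 and Mcpt2, and a connective tissue kind of the submucosa and muscle layer, known for Mcpt4, Cma1, Tpsb2 and Cpa3. Both kinds store histamine and proteases in granules and release them when antigen crosslinks IgE held on the high-affinity receptor. They depend on the receptor tyrosine kinase KIT and its ligand, and they respond to the alarmin IL-33. In RNA of a whole colon, fewer mast cells and less RNA per mast cell cannot be told apart.

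On each array 70.6% to 72.9% of its 56605 probes gave a signal well above background, the median processed signal was 77.66 to 96.88, and no spot was saturated. The 6 epithelium markers and the 6 smooth muscle markers each passed that mark on every array. The 5 arrays shared 1 slide and 1 scan time, so neither could separate the groups. All levels below are log2 values of quantile-normalized processed signal unless a linear signal is named, and all changes are NT-3N minus Control on that log2 scale. Levels of different probes are not compared.

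The 9 measured genes were covered by 11 probes. Every array had a signal well above background for 6 of them, some arrays did for 3, and no array did for 2. Mcpt1, Mcpt4, Cma1, Tpsb2, Fcer1a and Hdc each had a probe that was bright enough on every array. Mcpt2 was well above background on Control replicate 1 and NT-3N replicate 2 alone, and Cpa3 on these arrays and on NT-3N replicate 3. Both Ms4a2 probes fell short of the detection filter, which asked for at least 2 arrays. No probe was paired with Tpsab1, the tryptase gene that C57BL/6 mice are known not to use.

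The upstream sequences are shown for 4 genes because 2 of them, Mcpt1 and Mcpt4, lie in the same gene cluster on chromosome 14 and had nearly the same array-to-array profile, while Cma1 of that cluster and Hdc elsewhere had other profiles. Each is the stretch of 250 bases before the gene's start, read 5′ to 3′ on the gene's strand from RefSeq, build GRCm38.p6. Capitals mark GATAA or its reverse complement TTATC, the letters at the core of sites bound by GATA factors.
Mcpt1 (chr14:56017714-56017963, plus strand): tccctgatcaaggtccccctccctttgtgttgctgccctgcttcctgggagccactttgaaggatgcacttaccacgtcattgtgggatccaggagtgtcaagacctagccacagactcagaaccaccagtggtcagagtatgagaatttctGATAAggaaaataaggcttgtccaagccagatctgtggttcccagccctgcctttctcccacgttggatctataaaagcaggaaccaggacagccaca
Mcpt4 (chr14:56062311-56062560, minus strand): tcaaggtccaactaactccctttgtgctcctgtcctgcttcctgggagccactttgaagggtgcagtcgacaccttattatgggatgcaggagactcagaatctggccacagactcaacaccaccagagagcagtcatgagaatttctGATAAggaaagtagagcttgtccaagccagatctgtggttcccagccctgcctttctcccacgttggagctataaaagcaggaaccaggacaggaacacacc
Cma1 (chr14:55944676-55944925, minus strand): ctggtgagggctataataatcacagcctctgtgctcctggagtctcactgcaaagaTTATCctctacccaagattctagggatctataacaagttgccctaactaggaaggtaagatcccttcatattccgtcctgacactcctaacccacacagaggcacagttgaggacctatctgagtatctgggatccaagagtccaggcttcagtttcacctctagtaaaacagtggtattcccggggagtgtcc
Hdc (chr2:126618679-126618928, minus strand): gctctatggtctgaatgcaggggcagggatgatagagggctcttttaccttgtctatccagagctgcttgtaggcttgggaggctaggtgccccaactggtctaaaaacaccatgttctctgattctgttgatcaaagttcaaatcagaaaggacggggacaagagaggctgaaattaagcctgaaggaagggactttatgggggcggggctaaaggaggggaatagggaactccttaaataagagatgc
Of the 10 genes, 7 had such a window in the RefSeq table, and Mcpt2, Tpsb2 and Tpsab1 did not. The windows of Mcpt1 and Mcpt4 were identical at 209 aligned bases, 83.6% of the window, with a shared run of 53 bases. The other 20 pairs of windows were identical at 49.6% to 56.4%, with no shared run over 11 bases.

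GATAA on either strand occurred in 6 of the 7 windows (Mcpt1, Mcpt4, Cma1, Cpa3, Fcer1a and Ms4a2), and in 22.6% of 32851 windows of the same length genome-wide. It lay 98 to 94 bases before the start of Mcpt1 and 102 to 98 bases before the start of Mcpt4. Ms4a2 held it at 3 places, and the Hdc window did not hold these letters. TATAAA, on either strand, occurred in 4 of the 7 windows (Mcpt1, Mcpt4, Cpa3 and Fcer1a) and in 12.4% of all windows. CANNTG, which reads the same on both strands, occurred in 4 of 7 windows against 66.2% of all, and TTCNNNGAA, the letters of a STAT site, in 0 of 7 against 7.02%. These matches describe the letters in the windows and were not tested as binding sites.

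None of the 8 tested genes changed at an adjusted p under 0.05 in limma, a threshold that 47 of all features, 0.143%, passed in either direction. At an unadjusted p under 0.05, 1 of the 8, Hdc, was higher in NT-3N, against 4.95% of all features, and 0 of 8 were lower, against 4.67%. Hdc was also the 1 gene whose NT-3N values all lay above both Control values, against 13.5% of all features, and 0 of 8 had all NT-3N values below Control, against 14.8%. By sign, 7 of the 8 changes were positive and 1 negative, where 15263 of all 32917 features had a positive change. The median of the 8 changes was 0.44, and the median of all features was -0.02. Without Control replicate 2 the changes of Mcpt1, Mcpt2, Mcpt4, Cma1 and Cpa3 were negative. Those of Tpsb2, Fcer1a and Hdc were positive. A single gene of 8 is not read as a result about the whole list.

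**Figure D1:**
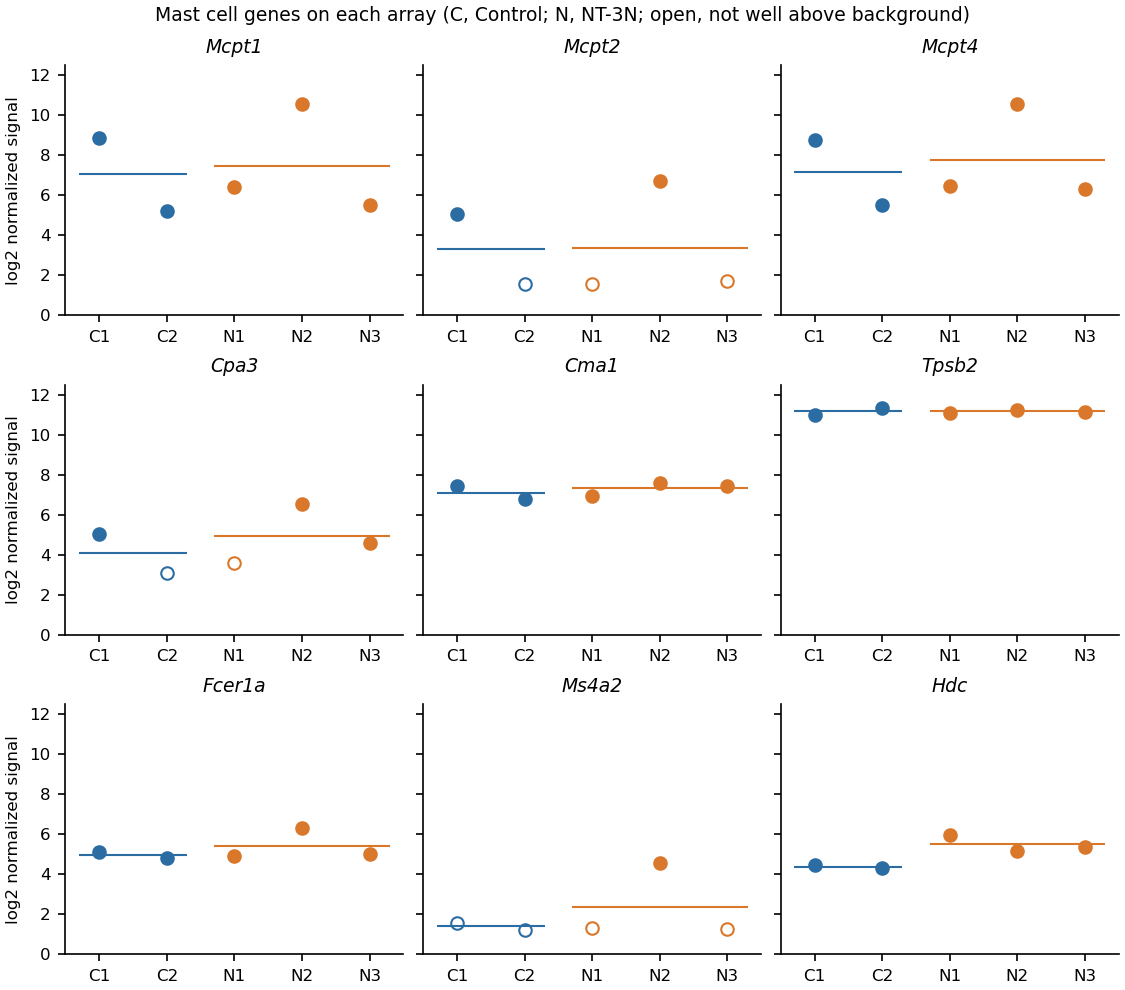
Level of 9 mast cell genes on each array. The vertical axis is log2 normalized signal, blue points are the Control mice (C1, C2), orange points the NT-3N mice (N1 to N3), lines the group means, and open points lie on arrays where the probe was not well above background. Mcpt1, Mcpt2, Mcpt4 and Cpa3 were highest on N2 and next highest on C1, Tpsb2 was level, and Hdc lay above both Control values on all 3 NT-3N arrays.

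The chymases of the mucosal mast cell differed far more between mice of 1 group than between the groups. Mcpt1 encodes the chymase that mucosal mast cells release into the blood during intestinal anaphylaxis and worm expulsion. Its level was 8.87 and 5.23 in Control replicates 1 and 2, and 6.40, 10.55 and 5.49 in NT-3N replicates 1, 2 and 3. On the linear scale of the scanner the processed signal ran from 38.26 in Control replicate 2 to 1728 in NT-3N replicate 2. Control replicate 1 and NT-3N replicate 2 were high, the other 3 mice were low, and the groups overlapped. The group means were 7.05 ± 2.58 (SD, n = 2) and 7.48 ± 2.69 (SD, n = 3), a change of 0.43 (standard error 1.67, 95% interval from -3.60 to 4.46, adjusted p = 0.95 in limma). Leaving out Control replicate 2 gave a change of -1.39 and leaving out NT-3N replicate 2 gave -1.10, so its sign rested on single mice.

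Mcpt2, the neighbouring gene for a mucosal chymase with little known enzymatic activity, gave 5.07 and 1.56 in the Control mice and 1.57, 6.72 and 1.72 in the NT-3N mice. The probe was well above background on 1 of 2 Control and 1 of 3 NT-3N arrays, the same mice in which Mcpt1 was high. The low values are near the floor of the array and have no order among themselves. The change was 0.02 with a standard error of 1.78 (adjusted p = 0.998 in limma), and it was -1.74 with Control replicate 2 left out and -1.67 with NT-3N replicate 2 left out.

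Mcpt4 encodes the chymase of connective tissue mast cells and the closest functional counterpart of human chymase. Its array-to-array profile was nearest those of Mcpt1 and Mcpt2, then that of Cpa3, and further from those of Cma1 and Tpsb2. Its level was 8.78 and 5.51 in the Control mice and 6.45, 10.55 and 6.33 in the NT-3N mice. Again Control replicate 1 and NT-3N replicate 2 stood above the rest. The change was 0.63 (standard error 1.49, 95% interval from -2.98 to 4.23, adjusted p = 0.915 in limma), and it turned to -1.01 when Control replicate 2 was left out and to -0.76 when NT-3N replicate 2 was.

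Cpa3 encodes carboxypeptidase A3, which trims peptides after chymase has cut them and is packed in the granules of nearly all mast cells. It gave 5.03 and 3.09 in the Control mice and 3.60, 6.56 and 4.58 in the NT-3N mice. NT-3N replicate 2 was highest and Control replicate 1 next, and Control replicate 2 and NT-3N replicate 1 were not well above background. The change was 0.85 (standard error 0.95, 95% interval from -1.43 to 3.14, adjusted p = 0.801 in limma). Without Control replicate 2 it was -0.12.

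Mcpt1 and Mcpt4 were among the most variable genes on the array. Between the lowest and the highest array the normalized signal differed 39.9-fold for Mcpt1 and 32.8-fold for Mcpt4. As log2 ranges these were 5.32 and 5.04, at percentiles 99.8 and 99.7 of all 32917 features, where the median range was 0.49 and 95 features, 0.289%, had a range of at least 5. For the dimmer Mcpt2 and Cpa3 the lowest arrays were not well above background, so the difference is a bound: at least 10-fold for Mcpt2 and at least 8.93-fold for Cpa3, against the lowest signal well above background on the array. Differences between mice of the same group made up 99.0% of the total sum of squares of Mcpt1 and 97.3% of Mcpt4. Normexp background correction added an offset of 50 to each signal. After it the ranges of Mcpt1 and Mcpt4 were 3.99 and 3.89, and those of Mcpt2 and Cpa3 were 1.48 and 1.21.

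**Figure D2:**
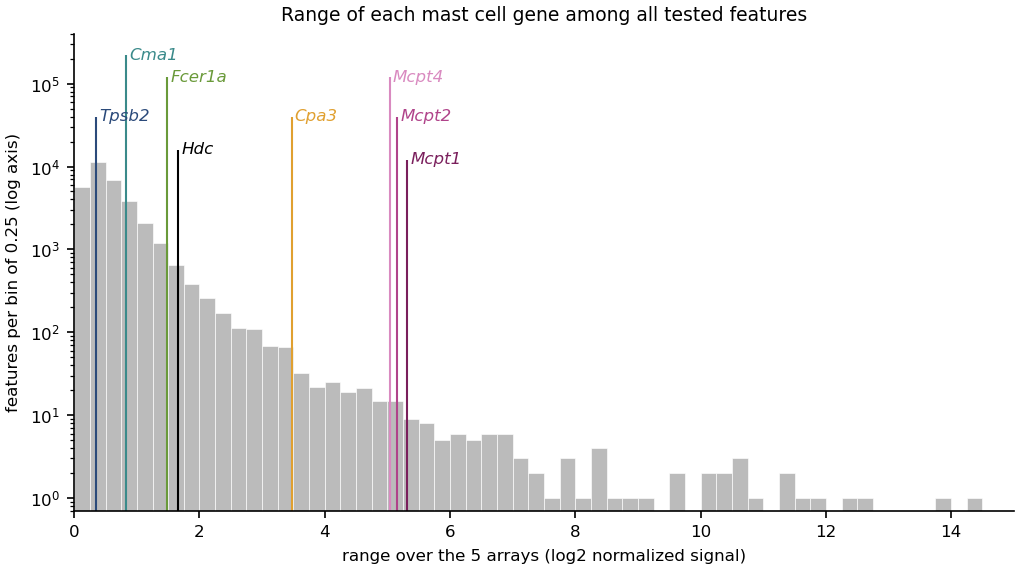
Range over the 5 arrays for all tested features (grey bars, bins of 0.25 on the log2 scale, counts on a log axis) with the 8 tested mast cell genes marked by lines. Tpsb2 (0.35) lies below the median range of 0.49, Cma1 (0.83), Fcer1a (1.48) and Hdc (1.66) above it, and Mcpt4 (5.04) and Mcpt1 (5.32) in the far tail. The lines of Cpa3 (3.47) and Mcpt2 (5.16) include arrays not well above background, and counted from the lowest signal well above background these ranges are at least 3.16 and 3.32.

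The same mice were high for Mcpt1, Mcpt2, Mcpt4 and Cpa3, where the low values of Mcpt2 and Cpa3 include arrays not well above background. After each gene was centred on its own mean, Mcpt1 and Mcpt4 differed by a root mean square of 0.33 over the 5 arrays, Mcpt1 and Mcpt2 by 0.43, and Mcpt2 and Mcpt4 by 0.46. Cpa3 differed from Mcpt4 by 0.83 and from Mcpt1 by 1.14, whereas Hdc differed from Mcpt1 by 2.19. Control replicate 1 and NT-3N replicate 2 were taken as a pair because they were highest for Mcpt1, so Mcpt1 itself is not counted. Of the other genes bright enough on every array, Mcpt4 and Fcer1a had the same highest pair. Cma1, Tpsb2 and Hdc did not, and 6.06% of all features had it. For Fcer1a the second place was narrow, at 5.10 in Control replicate 1 against 5.01 in NT-3N replicate 3. The pair was also highest for Mcpt2 and Cpa3, but these arrays were among those by which Mcpt2 and Cpa3 passed the filter, so they are not counted. By summed signal this pair was highest for the mucosal proteases and for the IgE receptor signalling genes. It was not highest for the connective tissue proteases, the further mast cell genes or any of the 11 lists of markers of other cell types. In such linear sums the brightest probe weighs most. This was Mcpt1 among the mucosal proteases, Tpsb2 among the connective tissue proteases and Tpsg1 among the further mast cell genes. The files hold no probe sequences, so how far the probes of the closely related chymase genes take up each other's transcripts was not tested.

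**Figure D3:**
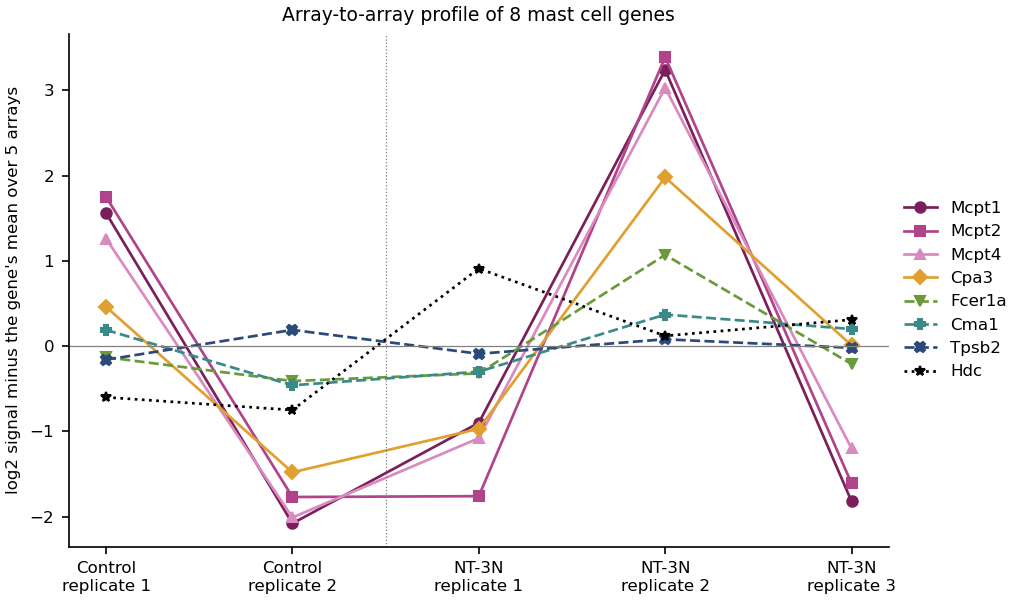
Array-to-array profile of the 8 tested genes. The vertical axis is log2 normalized signal minus the gene's mean over the 5 arrays, and the dotted line separates the Control from the NT-3N mice. Mcpt1, Mcpt2 and Mcpt4 run together, Cpa3 is likewise highest on NT-3N replicate 2 and next highest on Control replicate 1, at smaller size, whereas Tpsb2 stays near 0 and Hdc is below 0 in both Control mice and above 0 in all 3 NT-3N mice.

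Among the proteases of the connective tissue mast cell, Tpsb2 and Cma1 varied least. Tpsb2 encodes the tetrameric tryptase that stays bound to heparin in the granule. Its level was 11.01 and 11.36 in the Control mice and 11.08, 11.26 and 11.15 in the NT-3N mice. The groups overlapped, and the range of 0.35 lay at percentile 32.6 of all features. The change was -0.02 (standard error 0.13, 95% interval from -0.34 to 0.29, adjusted p = 0.968 in limma), which bounds any change of Tpsb2 more tightly than that of any other of the 8 genes.

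Cma1, a chymase gene whose mouse product cuts like an elastase, gave 7.42 and 6.77 in the Control mice and 6.93, 7.59 and 7.43 in the NT-3N mice. Control replicate 2 and NT-3N replicate 1 were the lower arrays, as they were for Cpa3, but the whole range was 0.83. The change was 0.23 (standard error 0.27, 95% interval from -0.43 to 0.88, adjusted p = 0.818 in limma), and it was -0.10 without Control replicate 2. The interval of Cma1 was narrow, whereas for Mcpt1, Mcpt2 and Mcpt4 the intervals spanned several log2 units on either side of 0.

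Of the IgE receptor, Fcer1a encodes the alpha chain that binds IgE and Ms4a2 the beta chain that amplifies the signal. Fcer1a was 5.10 and 4.81 in the Control mice and 4.90, 6.29 and 5.01 in the NT-3N mice. NT-3N replicate 2 alone stood out, and the other 4 mice lay within a narrow band. The change was 0.45 (standard error 0.45, 95% interval from -0.63 to 1.53, adjusted p = 0.778 in limma), and without NT-3N replicate 2 it was 0.00. The better of the Ms4a2 probes had a processed signal of 2.59 and 2.21 in the Control mice and 2.56, 25.9 and 2.54 in the NT-3N mice. It was well above background in NT-3N replicate 2, the mouse in which Fcer1a, Cpa3 and the chymases were highest, and in no other. The second Ms4a2 probe was not well above background on any array. Ms4a2 was therefore not tested.

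Hdc was the 1 gene of the set whose groups did not overlap. Its level was 4.45 and 4.30 in the Control mice and 5.96, 5.17 and 5.36 in the NT-3N mice. All 3 NT-3N mice lay above both Control mice, with replicate 1 highest. The group means were 4.38 ± 0.10 (SD, n = 2) and 5.50 ± 0.41 (SD, n = 3). The change of 1.12 had a standard error of 0.30 and an interval from 0.41 to 1.84, 2.18-fold on the linear scale (unadjusted p = 0.00797, adjusted p = 0.328 in limma). An exact two-sided permutation test over the 10 splits of the 5 mice gave p = 0.1, the smallest it can give. The difference between the groups made up 81.2% of the sum of squares of Hdc, where it made up at most 16.4% for the other 7 genes. Hdc kept its direction when any single array was left out, with changes from 0.89 to 1.29. After normexp background correction, with its offset of 50 added to each signal, the change was 0.40. A second Hdc probe was not well above background on any array, so the result rests on 1 probe, whose processed signal was 20.18 to 21.07 in Control and 39.72 to 57.09 in NT-3N.

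**Figure D4:**
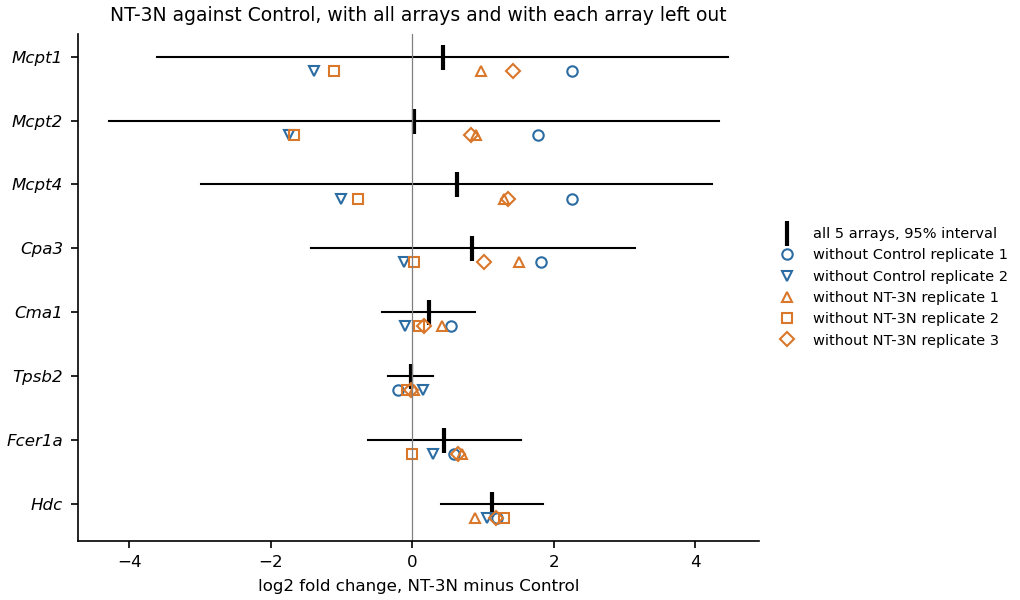
Change of the 8 tested genes, NT-3N minus Control, on the log2 scale. Black ticks and bars are the limma estimate and its 95% interval with all 5 arrays, and coloured symbols are the estimates with 1 array left out (blue a Control, orange an NT-3N array). Hdc is the 1 gene whose interval, from 0.41 to 1.84, lies wholly above 0, and for Mcpt1, Mcpt2 and Mcpt4 the estimate moves to the other side of 0 when Control replicate 2 or NT-3N replicate 2 is left out.

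Histidine decarboxylase is also made by basophils and by myeloid cells of the neutrophil lineage, so the markers of both were read beside it. Of the 10 neutrophil markers 9 had a probe and 6 were tested, with a median change of 0.73. At an unadjusted p under 0.05, 3 were higher in NT-3N (S100a8, S100a9 and Mmp9), where the share of all features was 4.95%. None of the 3 was well above background on a Control array. They passed the filter through NT-3N arrays alone, so neither their count nor the median of the list is read against all features. Of the 6, 0 were lower, against 4.67%, and 0 passed the adjusted threshold. S100a8, a subunit of the calprotectin of neutrophil cytosol, was 2.57 and 2.51 in the Control mice and 6.21, 4.28 and 5.15 in the NT-3N mice, at least 3.61-fold higher in NT-3N (adjusted p = 0.222 in limma). Its partner S100a9 was 1.56 and 1.58 in the Control mice and 8.58, 6.23 and 6.65 in the NT-3N mice, at least 13.9-fold higher (adjusted p = 0.0619 in limma). Both bounds set the NT-3N mean against the lowest signal well above background on the Control arrays, since neither probe was well above background there. The adjusted p-values of S100a8 and S100a9 rest on those dim Control values. Among the NT-3N mice S100a8 and S100a9 were highest in replicate 1, as Hdc was. So were Mmp8, at 5.37, 4.55 and 4.32, and Csf3r, at 16.23, 15.96 and 16.04, although the groups overlapped for both. Mmp9, at 4.39, 4.88 and 4.05, was highest in replicate 2 and Camp, at 6.25, 6.42 and 6.50, in replicate 3. Ngp and Cxcr2 were not well above background on any array, Retnlg was on 1, and no probe was paired with Ly6g.

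The summed signal of the neutrophil list was 77120 to 78120 in Control and 64190 to 77600 in NT-3N, nearly all of it from the probe of Csf3r, which had a level of 15.96 to 16.25. Of the 6 basophil markers 5 were tested. At an unadjusted p under 0.05, 1, Il6, was higher in NT-3N, where the share of all features was 4.95%, and 0 were lower, against 4.67%. Il6 was well above background on 0 Control and 2 NT-3N arrays. It passed the filter through NT-3N arrays alone, so it is not read against that share. The summed signal of the basophil list was 966.9 to 1068 in Control and 1023 to 1246 in NT-3N. Mcpt8, the protease that defines mouse basophils, was well above background on 1 array and was not tested. The part of neutrophils or basophils in the Hdc difference was not tested.

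Of the other genes of the histamine pathway, none passed the unadjusted threshold in the direction of Hdc. Of 8 genes 7 were tested, with 2 positive and 5 negative changes, a median of -0.26, and 0 past the adjusted threshold. At an unadjusted p under 0.05, 0 were higher, against 4.95% of all features, and 2 lower, against 4.67%. Hnmt, which encodes the methyltransferase that inactivates histamine inside cells, was 7.98 and 8.15 in the Control mice and 7.13, 7.49 and 7.51 in the NT-3N mice. All NT-3N values of Hnmt lay below Control, and its change was -0.68 with a standard error of 0.17 (adjusted p = 0.279 in limma). Hrh3, the histamine receptor best known from neurons, was 6.41 and 6.30 in the Control mice and 5.78, 5.73 and 5.79 in the NT-3N mice. Its change was -0.59 with a standard error of 0.16 (adjusted p = 0.346 in limma). A second Hrh3 probe was not well above background on any array, so the change rests on the brighter probe alone.

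The remaining tested genes of that pathway had no change past the unadjusted threshold. Aoc1, the diamine oxidase that degrades histamine in the gut lumen, had a change of 0.01 with an interval from -0.17 to 0.20. Slc18a2, the vesicular transporter that loads histamine into granules, had a change of -0.29 with an interval from -0.68 to 0.11. The receptor genes Hrh1 and Hrh4 had changes of 0.20 and -0.26, with all NT-3N values above Control for Hrh1 and below Control for Hrh4, and the transporter gene Slc22a3 had -0.19. For both receptor genes a second probe, well above background on every array, had overlapping groups. The second Hrh1 probe went the other way, with means of 4.96 in Control and 4.73 in NT-3N. Hrh2 was not tested.

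**Figure D5:**
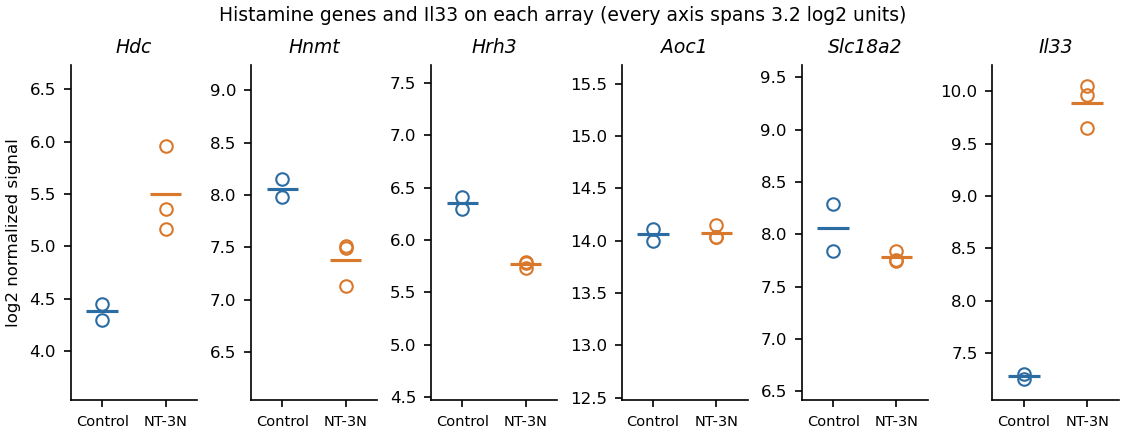
Level of Hdc, 4 other histamine genes and Il33 on each array. Each panel has its own vertical axis in log2 normalized signal spanning the same 3.2 units, open circles are single mice and lines the group means. The NT-3N mice lie above both Control mice for Hdc and Il33 and below them for Hnmt and Hrh3, and the groups overlap for Aoc1 and Slc18a2.

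Of 24 further mast cell genes, 19 were tested, each with a probe well above background on all 5 arrays. There were 9 positive and 10 negative changes with a median of -0.08, and 0 passed either threshold. Their groups did not overlap for 3 of the 19 (Gata2, Ltc4s and Ndst2), lower in NT-3N, against 14.8% of all features in that direction. The other 5 (Cd200r3, Mrgprb1, Mrgprb2, Cyp11a1 and Mcpt9) were not well above background on any array, among them the receptor Mrgprb2 by which connective tissue mast cells sense cationic peptides. Kit, the receptor for stem cell factor, was 11.54 and 11.98 in the Control mice and 11.12, 11.32 and 11.67 in the NT-3N mice. The groups overlapped, and its change was -0.39 with a standard error of 0.20 (adjusted p = 0.597 in limma). Interstitial cells of Cajal, the pacemaker cells of gut muscle, also make Kit, so its level is not a measure of mast cells alone. Il1rl1, the IL-33 receptor, was 7.67 and 7.35 in the Control mice and 7.16, 8.40 and 6.66 in the NT-3N mice, a change of -0.10 with a standard error of 0.48 (adjusted p = 0.959 in limma). This probe was highest in NT-3N replicate 2 and next highest in Control replicate 1, as were Srgn, Adora3 and Cma2, 4 of the 19 genes in all. Of all features, 6.06% had the same highest pair of arrays. The second place was narrow for Srgn, at 10.19 against 10.15 in NT-3N replicate 3, and for Adora3, at 6.29 on both arrays. A second Il1rl1 probe, at 6.85 and 7.04 in the Control mice and 6.99, 7.84 and 6.89 in the NT-3N mice, was also highest in NT-3N replicate 2 but lowest in Control replicate 1.

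Among 15 genes of mast cell growth and homing, 11 were tested, with 8 positive and 3 negative changes and a median of 0.16. Of the 11, 1 gene, Il33, rose at an adjusted p under 0.05, and Kitl and Itgae also had all NT-3N values above Control, so that 3 of 11 did not overlap, against 13.5% of all features. For Kitl this held for the brightest probe alone. Another Kitl probe, at 8.56 and 8.53 in the Control mice and 8.80, 8.70 and 8.54 in the NT-3N mice, overlapped. So did a further one, at 8.25 and 8.17 in Control and 8.30, 8.32 and 8.21 in NT-3N. Il33, whose product activates mast cells through the receptor encoded by Il1rl1, was 7.30 and 7.25 in the Control mice and 9.65, 9.97 and 10.05 in the NT-3N mice. All NT-3N mice lay well above Control, and the change was 2.61 with a standard error of 0.15 (adjusted p = 0.00573 in limma). The call was lost with the replicate block (adjusted p = 0.346), without NT-3N replicate 3 (0.0776), without a filter on dim probes (0.0718) and without the intensity trend (0.0569), with changes of 2.54 to 2.61. Kitl, the KIT ligand, had a change of 0.16 (adjusted p = 0.672 in limma). Of the 11 genes that carry the signal of the IgE receptor, all were tested and 0 passed either threshold, with 7 positive and 4 negative changes and a median of 0.01. Among them Fcer1g, the gamma chain that other myeloid receptors share, had a change of 0.00 with an interval from -0.25 to 0.25.

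The chymase genes lie side by side on mouse chromosome 14. In the RefSeq table the order of the 15 genes from Cma1 to Gzmb was Cma1, Cma2, Mcpt1, Mcpt2, Mcpt9, Mcpt4, Mcpt8, Ctsg, Gzme, Gzmd, Gzmg, Gzmn, Gzmf, Gzmc and Gzmb. Each had a probe and 7 were tested, 0 of them past either threshold. Mcpt1, Mcpt2 and Mcpt4 hold places 3, 4 and 6 in that order. Cma2, between Cma1 and Mcpt1, was 8.17 and 7.25 in the Control mice and 6.81, 9.78 and 7.53 in the NT-3N mice. It was highest on the arrays where Mcpt1 was, whereas Cma1 was highest in NT-3N replicates 2 and 3, and the range of Cma2, 2.97, lay at percentile 98.9. Further along, Ctsg, the cathepsin G gene, and Gzmb, the granzyme B gene, had other high arrays, with Control levels of 4.27 and 3.64 for Ctsg and 6.09 and 7.26 for Gzmb, and NT-3N levels of 4.79, 3.87 and 4.21 for Ctsg and 7.18, 7.01 and 6.16 for Gzmb. Mcpt9 and the granzyme genes other than Gzmb were not well above background on any array, and Mcpt8 was on 1.

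Cma2 was also the gene closest to the mean profile of Mcpt1 and Mcpt2 among 16728 candidates outside the set, each detected on every array. Its root mean square difference over the 5 centred arrays was 1.22, where a flat profile would give 2.10. The next were H2-Eb2 at 1.31, 2310034C09Rik at 1.33, Megf11 at 1.38 and Mup19 at 1.42, so no candidate came as near to Mcpt1 and Mcpt2 as Mcpt4 did. To the mean of Mcpt4, Cma1, Tpsb2 and Cpa3, for which a flat profile gives 0.82, the closest were Vsig1 at 0.27, Tnip3 at 0.31, Gm5547 at 0.35 and Cma2 at 0.35. With 5 arrays such likeness is a description and carries no test.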

How the data were processed

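Colon RNA of 5 mice was read on 1-colour Agilent arrays, 2 Control and 3 NT-3N. The authors extracted spots with Agilent Feature Extraction 11.0.1.1 and deposited, per array, a background-subtracted processed intensity that was not scaled between arrays, with flags for outliers and for signal well above background. The authors also deposited log2 values of 37380 probes, which matched quantile-normalized processed signal (r of at least 0.99998 per array across probes) and were used as an alternative. They held Mcpt1, Mcpt4, Cma1, Tpsb2, Fcer1a and Hdc.

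Outlier spots (69 to 184 per array) were left out, the processed intensity was put on the log2 scale, replicate spots of a probe were averaged, and arrays were quantile-normalized. Probes well above background on at least 2 arrays were kept, and the brightest probe stood for a gene. Accessions were named through a RefSeq table of GRCm38.p6, which paired 32994 of 56605 probes with a symbol. The array design refers to another build. NT-3N was set against Control in limma 3.58.1 under R 4.3.3 (lmFit, eBayes with intensity trend, two-sided, Benjamini-Hochberg over 32917 features), which was tested on simulated data and replaces the local-pooled-error test named in the study's methods. Upstream windows were aligned with Biopython 1.88. The number of arrays limits the precision. The p-values, standard errors and intervals rest on the spread between these mice, which limma moderates towards a spread pooled over all features. For Mcpt1, Mcpt2 and Mcpt4, among the most variable features, the intervals are therefore narrower than their own spread alone would give. The 10 genes and the further lists were chosen with earlier results of these data known. Genes outside the 10 are named by their list, and given values when past an unadjusted p of 0.05, when among the closest profiles, or in the chymase cluster; Kit, Kitl, Il33, Il1rl1 and Fcer1g are always given. A gene among the closest profiles is not reported here. Values of other genes named beside Hdc or within a list were chosen after they were seen. Fit alternatives covered scaling, background correction, filter, variance model, array weights, replicate number, several probes and each array left out.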

Additional observations from a re-analysis of the deposited data

How the results depend on the processing

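The count of mast cell genes past an adjusted p under 0.05 was 0 in limma and in all 16 alternatives, and the counts past the unadjusted threshold were 1 higher and 0 lower in each. Hdc kept its direction and an unadjusted p under 0.05 in 16 of 16, with changes from 0.40 after normexp on the median spot signal to 1.29 without NT-3N replicate 2, unadjusted p from 0.00552 to 0.0403 and adjusted p from 0.165 to 0.8. With arrays left out, the change ran from -1.39 to 2.25 for Mcpt1, -1.74 to 1.77 for Mcpt2, -1.01 to 2.26 for Mcpt4, -0.12 to 1.82 for Cpa3, -0.10 to 0.55 for Cma1, -0.20 to 0.15 for Tpsb2 and 0.00 to 0.70 for Fcer1a. Tpsb2 turned to 0.00 with 75th percentile scaling and to 0.02 with median scaling, with normexp and with array quality weights. The further mast cell genes past the unadjusted threshold numbered 0, but 1 without a filter on dim probes, 1 with array quality weights, 3 with the replicate block and 0 to 4 with arrays left out, the highest without Control replicate 1. The cause was not tested.

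Of all features, 47 passed the adjusted threshold, against 200 with array quality weights, 2 without a filter, 2 without the intensity trend, 0 with the replicate block, 31 without Control replicate 1, 118 without Control replicate 2, 87 without NT-3N replicate 1, 10 without NT-3N replicate 2 and 0 without NT-3N replicate 3. Replicate numbers are shared by 2 pairs, whose deviations correlated at 0.13 and 0.036. The labels do not say that a shared number marks a batch. These correlations cannot decide it, since the deviations of the 2 Control arrays from their mean mirror each other. A block for slide and scan could not be fitted with 1 slide, and normexp ran on the median spot signal, a choice made after seeing the data, as the files hold no mean. Mcpt2 and Cpa3 were not in the deposited log2 table or among probes well above background on all arrays, so their changes have 14 alternatives. Signals near the floor (9.83 to 13.5, the lowest well above background) limit Mcpt2, Cpa3 and Ms4a2. Control signals of Hdc were low too, at 21.07 and 20.18, where the lowest well above background on those arrays were 9.83 and 11.1. The size of the Hdc change therefore depends on how background is handled.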
